A study of Homo sapiens with 30 samples.

Results

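The genes of the integrins, laminins and collagens were followed in cells of human pancreatic ductal adenocarcinoma (PDAC). Members were chosen by their symbol alone, as every gene of the deposited table named as an integrin chain (ITGA or ITGB), a laminin chain (LAMA, LAMB or LAMC) or a collagen chain (COL, the collagen type, A and the chain). The rule gave 82 of 24895 entries, which were 26 integrin genes, 12 laminin genes and 44 collagen genes. It also took in ITGBL1, which encodes an integrin beta-like protein that is not an integrin chain. This rule uses no measured value.

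The study sequenced the RNA of 2 established PDAC cell lines, MiaPaCa2 and PANC-1, after siRNA knockdown of genes that it links to PDAC. A small interfering RNA (siRNA) brings down the messenger RNA whose sequence it pairs with, and sometimes others that share a short match. Cells of each line received siControl, a control siRNA, or 1 of 4 siRNAs named for their target gene (siDDX60L, siMYEOV, siKCNN4 and siS100A16). There were 3 libraries in each of the 10 groups, 30 libraries in all. All groups, siControl included, were therefore transfected cells, and cultured lines lack the stroma of a tumour. Each line had 1 set of siControl libraries, so the comparisons within a line share their 3 control libraries.

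Integrins are receptors of an alpha and a beta chain that span the cell membrane and bind the extracellular matrix outside and the actin or keratin skeleton inside. Laminins are cross-shaped trimers of an alpha, a beta and a gamma chain, and together with the network-forming type IV collagen they build the basement membrane on which epithelial cells sit. Fibrillar collagens such as types I, III and V form the fibres of connective tissue, and a dense collagen-rich stroma is typical of PDAC, where most of it is laid down by fibroblasts. Carcinoma cells make part of their own matrix, and PDAC invasion begins where they breach the basement membrane.

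Expression was measured as FPKM (fragments mapped to a gene, scaled to its length and to the mapped fragments of the library), which allows levels of different genes to be set side by side. Summed over all genes, libraries of MiaPaCa2 held 395879 FPKM at the lowest and 416201 at the highest, with 375091 and 407738 as the limits in PANC-1, and the read depth of single libraries is unknown from the table. Replicates of a group correlated across genes with r from 0.984 to 0.991, where genes are not independent replicates. In both lines every siRNA lowered its target gene, to 4.95 to 47.5% of the siControl mean, with all 3 libraries below all 3 controls. Some targets were low from the outset. MYEOV in MiaPaCa2 had a mean of 0.803 FPKM under siControl and 0.171 after siMYEOV. DDX60L was at 1.95 FPKM under siControl in MiaPaCa2 and 1.31 in PANC-1, and at 0.215 and 0.583 after siDDX60L. Of 10 duct epithelium markers, 6 had a mean of at least 1 FPKM in MiaPaCa2 and 9 in PANC-1, and EPCAM and CDH1, defining epithelial markers, were under 0.1 FPKM in MiaPaCa2. Of 10 fibroblast markers, 2 reached 1 FPKM in each line (ACTA2 and FBLN5 in MiaPaCa2, THY1 and ACTA2 in PANC-1), with sums of 1.77 to 14.4 FPKM over the libraries of MiaPaCa2 and 1.51 to 6.72 in PANC-1. Of 12 leukocyte markers, 2 did so (CD68 and LYZ, CD68 and CD74), with sums of 10.3 to 23.8 and 33.3 to 89.2 FPKM, most of them CD68. Of 8 endothelial markers, CDH5, ENG and EMCN did in MiaPaCa2 and ENG in PANC-1, with sums of 27.7 to 48.7 and 12.3 to 25.7 FPKM, and the mean of ENG was 32.1 and 17.0 FPKM. The defining markers DCN, LUM and PDGFRA of fibroblasts, PTPRC and CD3E of leukocytes and PECAM1 and VWF of endothelium were under 0.1 FPKM in both lines. The summed duct markers moved with the siRNAs: from 2151 to 2306 FPKM in the siControl libraries of MiaPaCa2 to 1911 to 2005 after siDDX60L, 656 to 699 after siMYEOV and 1153 to 1236 after siKCNN4, and from 3346 to 3559 FPKM in PANC-1 to 1358 to 1536 after siDDX60L, 1169 to 1308 after siMYEOV, 1628 to 1744 after siKCNN4 and 2268 to 2406 after siS100A16. Their part in the changes below was not tested. In bulk RNA, fewer cells making a transcript and less of it per cell cannot be told apart, and the p values measure the spread between libraries, for which the labels name no separate cultures.

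A member was tested in a line where its 15 libraries averaged 1 FPKM or more: 28 in MiaPaCa2, 33 in PANC-1, 20 in both and 41 in either. The mean just inside this limit was 1.13 FPKM (LAMA2) and the mean just outside was 0.982 FPKM (COL7A1) in MiaPaCa2, against 1.05 (COL4A2) and 0.947 (LAMB3) in PANC-1. Changes are given as the log2 fold change of FPKM + 1 with its standard error (written ± SE), a scale that understates the change of genes near 1 FPKM. A change was called at an adjusted p of limma under 0.05 and a log2 fold change of at least 0.5 in either direction. ITGA10 passed the limit in MiaPaCa2 only through the siKCNN4 libraries, and COL27A1 and COL4A2 passed in PANC-1 only through siControl, so a rise of the former and a fall of the latter were built into their selection. Passing only through a group means here that the remaining groups of the line averaged under 1 FPKM together. COL27A1 and COL4A2 were still over 1 FPKM in every siDDX60L and siS100A16 library of PANC-1. COL26A1 was under 1 FPKM in every siControl, siKCNN4 and siS100A16 library of MiaPaCa2. It passed the limit there through siDDX60L and siMYEOV, so a rise after these siRNAs was likewise built in. Such changes are given as a description, and the counts that hold them are also given without them.

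Under siControl, the 2 lines differed in most of the members tested in both, and ITGB1 was among the few at a like level in both. ITGB1, the beta chain shared by most integrins, was the most abundant member in MiaPaCa2, at 314, 282 and 314 FPKM, and stood at 259.6, 297 and 333 FPKM in PANC-1 (log2 difference −0.04 ± 0.10 with adjusted p = 0.75). The 2 sets of values overlapped. Of the 20 members tested in both lines, 11 were higher in PANC-1 and 7 in MiaPaCa2, while 25.9% of the 11084 genes tested in both were higher in PANC-1 and 23.3% in MiaPaCa2 (49.2% called). Over the 13304 genes tested in either line these shares were 30.9% and 23.9% (54.8%). The integrins and laminins leaned to PANC-1, where 6 of 9 integrins and all 4 laminins were higher and ITGB4 was lower. The collagens leaned to MiaPaCa2, where 6 of 7 were higher and COL18A1 was lower. A further 13 members passed the limit in PANC-1 only and 8 in MiaPaCa2 only, which sets a difference between the lines, so their levels are a description with no test.

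ITGA2, an alpha chain of collagen receptors, passed the limit in PANC-1 only, at 91.6, 89.1 and 93.1 FPKM there and 0.0694, 0.0939 and 0.0637 FPKM in MiaPaCa2. ITGB5, a beta chain that pairs with ITGAV, was at 9.99 ± 0.134 FPKM (SD, n = 3) in MiaPaCa2 and 119 ± 1.05 in PANC-1, and ITGAV itself at 15.6 ± 0.224 and 88.6 ± 1.78. PANC-1 was thus the higher line for both chains of that receptor. The hemidesmosome beta chain ITGB4 went the other way, with 54.6 ± 3.32 FPKM in MiaPaCa2 and 23.1 ± 0.46 in PANC-1. Its partner ITGA6 was at 9.05 ± 1.83 and 51.1 ± 0.243 FPKM, the reverse order. The laminin alpha chain LAMA5 was the highest laminin in PANC-1 at 89.5 ± 1.89 FPKM, against 16.3 ± 1.11 in MiaPaCa2.

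Among the collagens the lines differed chain by chain. COL18A1, a basement membrane collagen whose end fragment is endostatin, was the most abundant member of PANC-1 at 393, 388 and 398 FPKM, against 38.5, 34.1 and 38.8 in MiaPaCa2 (3.37 ± 0.083 with adjusted p = 4.5e-21). COL5A2, a fibrillar chain, was the highest collagen of MiaPaCa2 at 175, 188 and 191 FPKM, against 20.1, 23.5 and 22.5 in PANC-1 (−3.01 ± 0.087 with adjusted p = 1.2e-19). COL1A2, the second chain of type I collagen, was at 63.7, 68.7 and 68.4 FPKM in MiaPaCa2 and listed at 0 in all 3 siControl libraries of PANC-1. Its partner COL1A1 had the opposite pattern, with 0.524, 0.3 and 0.168 FPKM in MiaPaCa2 and 5.599, 7.17 and 5.77 in PANC-1, so neither line held both chains of type I collagen at over 1 FPKM. Likewise COL6A3 (16.5 ± 2.20 FPKM), COL17A1 (38.6 ± 1.68) and COL3A1 (8.41 ± 0.495) were expressed in MiaPaCa2 and under 0.2 FPKM in every siControl library of PANC-1. COL9A3 (21.3 ± 0.554 FPKM), COL11A1 (10.4 ± 0.269) and COL7A1 (14.9 ± 0.816) were expressed in PANC-1, and the MiaPaCa2 siControl means of these 3 were under 1 FPKM.

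**Figure D1:**
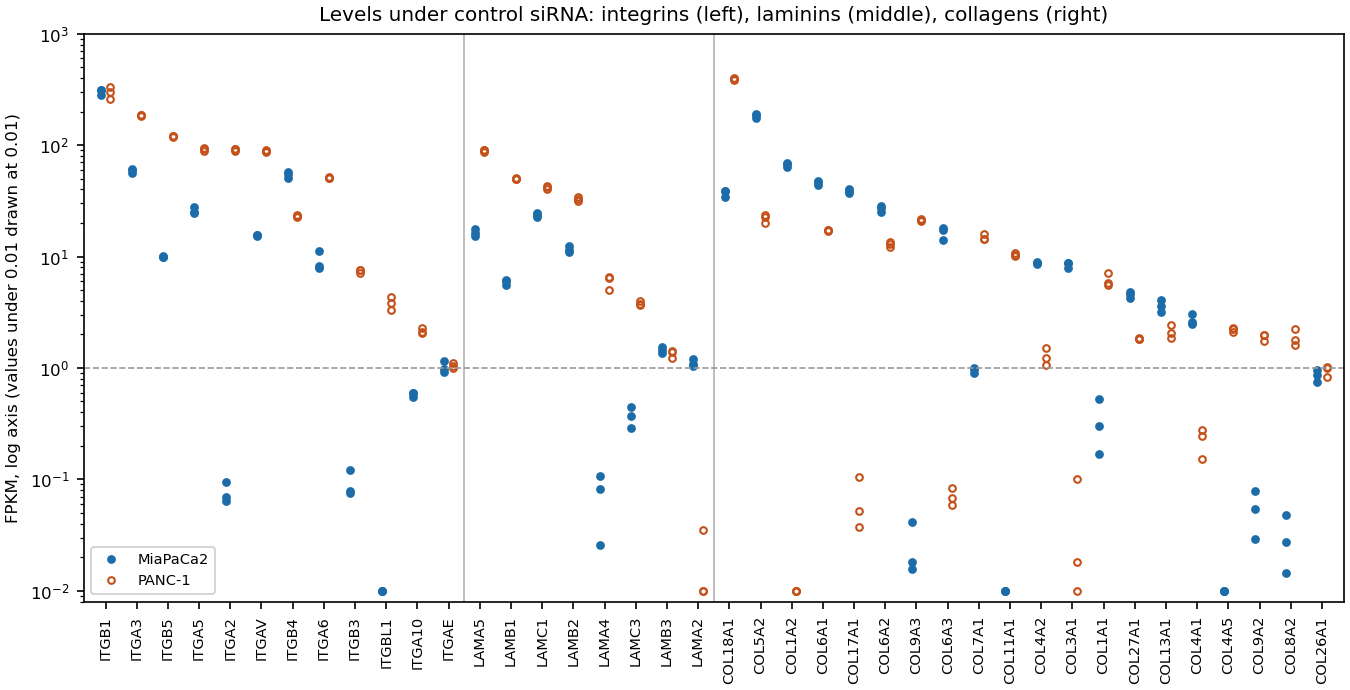
FPKM of 40 of the 41 tested members in each siControl library (log axis, values under 0.01 drawn at 0.01), with MiaPaCa2 as filled and PANC-1 as open points and a dashed line at 1 FPKM. ITGB1 runs from 282 to 314 in MiaPaCa2 and from 259.6 to 333 FPKM in PANC-1, while ITGA2, COL1A2, COL17A1 and COL9A3 are over 20 FPKM in either line and under 0.2 FPKM in the other.

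Of the 82 members, 41 were under the limit in both lines, and 19 of these had a mean under 0.1 FPKM in every group. They included LAMA1, the leukocyte chain ITGAL and the type IV chains COL4A3, COL4A4 and COL4A6. Among them, 5 reached 1 FPKM in at least 1 group (COL21A1, ITGB8, ITGA7, ITGB2 and LAMA3).

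Across the 8 comparisons of an siRNA with siControl, 36 of the 41 tested members were called at least once, 12 of them up in some and down in others, and 5 were never called (ITGB3, LAMA2, LAMB1, LAMB2 and LAMB3). Of all 13304 genes tested, 71% were called at least once and 10.7% in both directions. The 244 tests of members gave 97 calls, 42 up and 55 down, where 23.4% of all tests were called (13.5% up and 9.88% down), and in each call of a member the 3 siRNA libraries lay wholly on that side of the 3 siControl libraries. A further 84 passed the adjusted p with a change of under 0.5.

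After siDDX60L, 3 of the 9 integrins tested in MiaPaCa2 and 4 of the 12 in PANC-1 fell and 0 rose, while collagens moved both ways. In MiaPaCa2, 3 of the 28 tested members rose and 6 fell (32.1% in all), against 16.1% of all 11875 genes tested (8.77% up and 7.28% down), and the fallen members included the laminin receptor chains ITGA3 and ITGB4. The risen members include COL26A1, whose rise was built into its selection. In PANC-1, 4 of 33 rose and 8 fell (36.4%), against 17.5% of 12513 genes (10.2% up and 7.34% down), with ITGA2, ITGA5, ITGA10 and ITGB4 among the fallen and the collagens COL5A2 and COL11A1 among the risen. The median log2 fold change of the tested members was −0.16 in MiaPaCa2 and −0.23 in PANC-1, against 0.05 and 0.07 over all genes tested. Of the 20 members tested in both lines, ITGB4 alone was called the same way in both. With median-of-ratios scaling, 2 rose and 8 fell in MiaPaCa2 and 3 rose and 11 fell in PANC-1. Here and below, counts under this scaling are given without the share of all genes called under it. They therefore cannot be set against that share.

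After siMYEOV, integrins fell in both lines, 4 of the 9 tested in MiaPaCa2 and 5 of the 12 in PANC-1, and ITGAE was the only integrin that rose. The target MYEOV itself had a siControl mean of only 0.803 FPKM in MiaPaCa2, against 23.9 in PANC-1. In MiaPaCa2, 2 of 28 tested members rose and 8 fell (35.7%), beside 26.7% of all genes (16.3% up and 10.4% down), and in PANC-1, 5 of 33 rose and 14 fell (57.6%), beside 29.4% (14.3% up and 15.1% down). ITGAV, ITGB4, LAMA5 and COL18A1 fell in both lines and no member was called in opposite directions. The median of the tested members was −0.06 in MiaPaCa2 and −0.43 in PANC-1, against 0.11 and 0.04 over all genes. Median-of-ratios scaling took the 0.11 of MiaPaCa2 to 0.00. The risen members of MiaPaCa2 include COL26A1, whose rise was built into its selection. In PANC-1, 7 of the 14 tested collagens fell and 3 rose, and 13 members fell without COL27A1, which passed through siControl. In the same PANC-1 libraries the summed fibroblast markers were at 1.51 to 2.04 FPKM against 5.05 to 6.71 under siControl, and their part was not tested.

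After siKCNN4, more members of PANC-1 rose than fell. There 14 of 33 rose and 3 fell (51.5%, against 26.7% of all genes, 13.8% up and 12.9% down), and the risen ones were 5 integrins, 3 laminins and 6 collagens. Without COL27A1, 2 fell. In MiaPaCa2, 5 of 28 rose and 2 fell (25%), or 4 rose without ITGA10, a share close to the 23.2% of all genes (16% up and 7.23% down), or 4 and 3 with median-of-ratios scaling. The medians were 0.30 in PANC-1 and 0.21 in MiaPaCa2, against 0.02 and 0.09 over all genes. DDX60L, the target of another siRNA, also rose after siKCNN4 in MiaPaCa2 (0.87 ± 0.13 with adjusted p = 7.1e-05). LAMC1 and COL6A2 rose and LAMA5 fell in both lines. In the same PANC-1 libraries the summed leukocyte markers stood at 84.7 to 89.2 FPKM against 45.4 to 48.5 FPKM under siControl. Most of this was CD68, a lysosomal protein of macrophages that other cells also make (80.3 to 84.5 against 34.5 to 38.6 FPKM), while PTPRC and CD3E were under 0.1 FPKM, and whether this had a part in the rises was not tested.

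After siS100A16, more members fell than rose in MiaPaCa2, where 1 of 28 rose and 9 fell (35.7%, against 22.1% of all genes, 12.4% up and 9.63% down). In PANC-1, 8 of 33 rose and 5 fell (39.4%, against 25.4% of all genes, 16.5% up and 8.94% down), and of the 14 tested collagens 5 rose and 0 fell. The summed fibroblast markers of these PANC-1 libraries were at 3.14 to 3.62 FPKM, below the 5.05 to 6.71 under siControl, and their part was not tested. The medians were −0.16 and −0.05, against 0.04 and 0.09 over all genes. ITGB5, LAMA5 and LAMC1 fell in both lines. With median-of-ratios scaling the PANC-1 counts were 4 up and 6 down, and the rises of COL6A2, COL9A2, COL9A3 and ITGBL1 were no longer called (0.41 to 0.49).

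**Figure D2:**
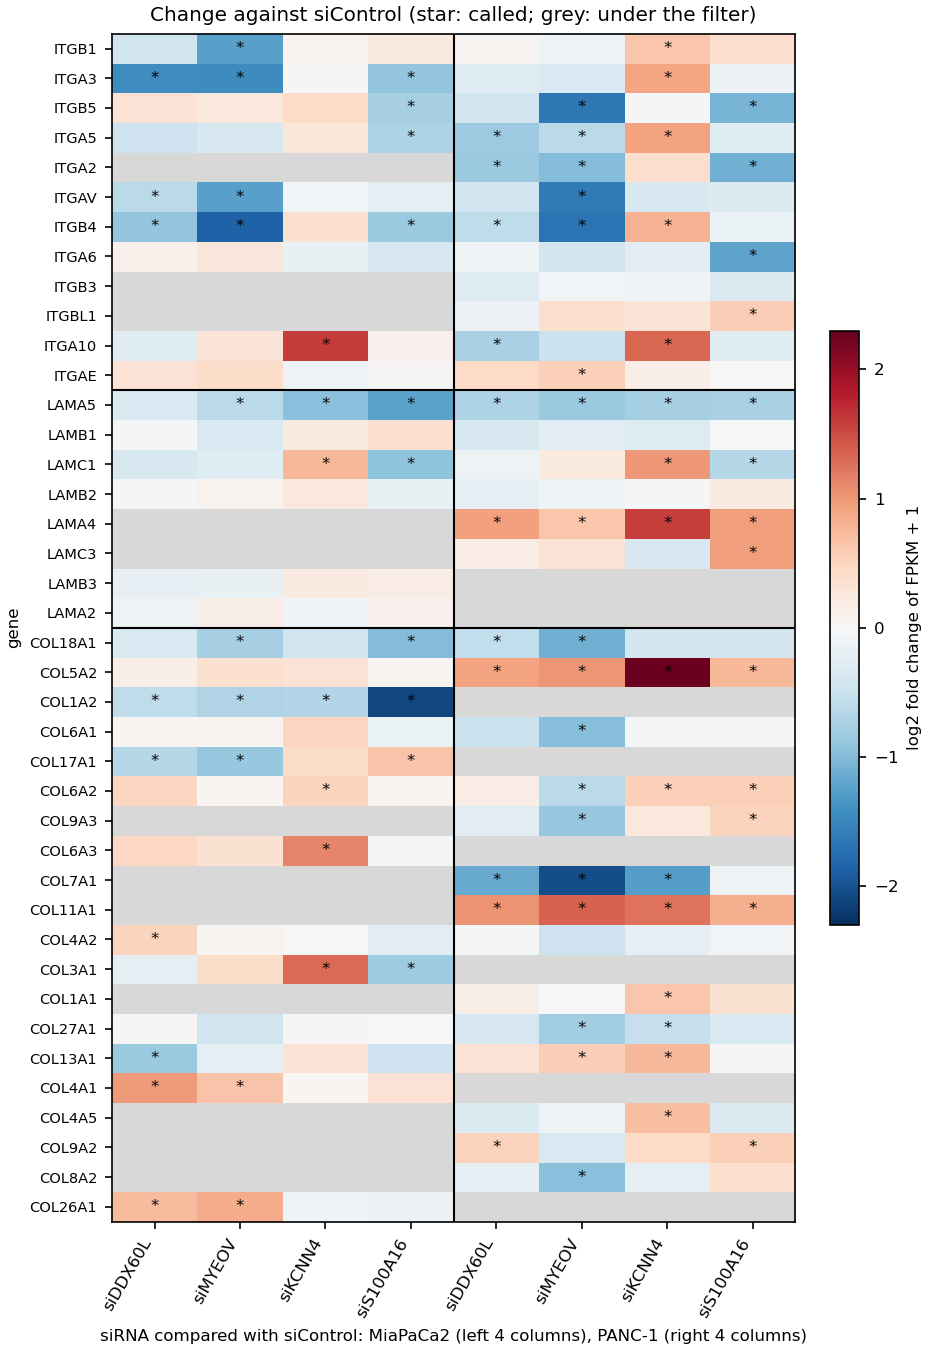
Log2 fold change of FPKM + 1 against siControl for 40 of the 41 tested members (rows: integrins, laminins, collagens, each by level) and the 4 siRNAs in MiaPaCa2 (left) and PANC-1 (right), with a star where the change was called and grey where the member was under the limit. LAMA5 is blue with a star in 7 of 8 columns, and COL5A2, COL11A1 and LAMA4 are red with stars in all 4 PANC-1 columns.

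Of the integrin chains that bind laminin, ITGA3 and ITGB4 fell after 3 of the 4 siRNAs in MiaPaCa2, and ITGA6 was called after none. ITGA3 (ENSG00000005884, chromosome 17, 48133332 to 48167845, plus strand on GRCh37) pairs with ITGB1 as a laminin receptor. In MiaPaCa2 it was at 55.8, 61.2 and 59.3 FPKM under siControl, 20.4, 21.3 and 21.5 after siDDX60L, 20.5, 20.6 and 21.7 after siMYEOV and 30.1, 31.1 and 30.7 after siS100A16. All 9 of these siRNA libraries were below the controls, and the 3 siKCNN4 libraries (59.0, 59.8 and 61.7) overlapped them. The falls were −1.44 ± 0.042 with adjusted p = 1.5e-10, −1.45 ± 0.042 with adjusted p = 4.6e-11 and −0.92 ± 0.042 with adjusted p = 3.3e-09, in that order. In PANC-1, ITGA3 instead rose after siKCNN4, from 184, 187 and 188 FPKM to 357, 354 and 339 (0.91 ± 0.054 with adjusted p = 2.3e-08), and the other 9 siRNA libraries were below the controls by less than the limit (−0.29, −0.35 and −0.14).

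ITGB4 (ENSG00000132470, chromosome 17, 73717408 to 73753899, plus strand) is the beta chain of the hemidesmosome and anchors keratin filaments. It fell after siDDX60L and siMYEOV in both lines. In MiaPaCa2 it was at 51.2, 57.8 and 54.7 FPKM under siControl, 28.2, 29.7 and 28.4 after siDDX60L, 14.9, 14.6 and 13.3 after siMYEOV and 32.6, 28.0 and 29.2 after siS100A16. None of these libraries overlapped the controls, and the changes were −0.90 ± 0.061 with adjusted p = 1.3e-07, −1.86 ± 0.061 with adjusted p = 1.1e-10 and −0.84 ± 0.061 with adjusted p = 1.5e-07. In PANC-1 the levels were 23.4, 23.2 and 22.6 FPKM under siControl, 17.3, 14.0 and 13.8 after siDDX60L, 7.26, 5.37 and 6.87 after siMYEOV and 43.8, 40.0 and 39.0 after siKCNN4, with changes of −0.59 ± 0.097 with adjusted p = 0.00025, −1.69 ± 0.097 with adjusted p = 1.3e-08 and 0.80 ± 0.097 with adjusted p = 1.4e-05. The siMYEOV libraries were the lowest of each line and the siKCNN4 libraries of PANC-1 the highest of that line. ITGB4 shares part of its locus with GALK1 on the other strand, and reads of the 2 genes cannot be told apart if strand was not used in counting.

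ITGA6, the alpha partner of ITGB4, was not called down in any comparison where ITGB4 was. In MiaPaCa2 no change of ITGA6 was called, with 7.84 to 11.2 FPKM in siControl and the 4 siRNA groups between 6.10 and 11.4 FPKM. Its siS100A16 libraries there (6.10 to 7.32 FPKM) were all below the controls, with a change of −0.39. In PANC-1, ITGA6 fell after siS100A16, from 51.3, 50.9 and 51.2 to 25.4, 23.3 and 16.4 FPKM (−1.22 ± 0.11 with adjusted p = 1.4e-06), and no siS100A16 library overlapped a control. After siMYEOV, where ITGB4 fell by 1.69, ITGA6 changed by −0.43, which was not called, with all libraries (35.8 to 39.0 FPKM) below the controls.

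ITGB1 (ENSG00000150093, chromosome 10, 33176201 to 33294720, minus strand) fell after siMYEOV in MiaPaCa2, from 314, 282 and 314 to 134, 111 and 139 FPKM (−1.24 ± 0.086 with adjusted p = 8.4e-08). In the siDDX60L libraries of that line it was at 220.3, 221 and 221 FPKM, also below all controls, with a change of −0.46 that was under the 0.5 limit. In PANC-1 it rose after siKCNN4, from 259.6, 297 and 333 to 423, 439 and 523 FPKM (0.64 ± 0.11 with adjusted p = 0.00033), and the siMYEOV libraries (301, 250.5 and 272) overlapped the controls. The siMYEOV mean was 42.2% of the siControl mean in MiaPaCa2 and 92.5% in PANC-1.

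Of the chains that bind fibronectin and vitronectin through the RGD motif, ITGAV fell after siMYEOV in both lines and ITGB5 and ITGA5 fell after it in PANC-1. ITGAV (ENSG00000138448, chromosome 2, 187454737 to 187545628, plus strand) fell in MiaPaCa2 from 15.8, 15.3 and 15.6 FPKM to 9.42, 9.55 and 10.6 after siDDX60L (−0.61 ± 0.067 with adjusted p = 9.8e-06) and 5.75, 6.77 and 5.50 after siMYEOV (−1.25 ± 0.067 with adjusted p = 8.7e-09). The PANC-1 values went from 88.1, 87.1 and 90.6 to 27.9, 28.0 and 27.9 FPKM after siMYEOV (−1.63 ± 0.049 with adjusted p = 9e-11). The 3 siMYEOV libraries of PANC-1 were nearly equal and far below the controls. After the other 3 siRNAs, ITGAV in PANC-1 was at 58.7 to 72.2 FPKM, also below every control, with changes of −0.46, −0.37 and −0.31 that did not reach 0.5.

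ITGB5 (ENSG00000082781, chromosome 3, 124480795 to 124620265, minus strand), a beta partner of ITGAV, split the lines. In PANC-1 it was at 119.8, 120.2 and 118 FPKM under siControl, 36.4, 35.8 and 40.4 after siMYEOV (−1.65 ± 0.079 with adjusted p = 3.3e-09) and 52.3, 65.3 and 52.9 after siS100A16 (−1.07 ± 0.079 with adjusted p = 1.8e-07). In MiaPaCa2 the siMYEOV libraries held 11.2, 11.8 and 12.8 FPKM, all above the controls at 9.88, 9.95 and 10.1, with a change of 0.23 that was not called. siS100A16 lowered it in MiaPaCa2 too, to 4.79, 6.29 and 5.35 FPKM (−0.77 ± 0.077 with adjusted p = 2.8e-06). ITGB3, the other tested beta partner of ITGAV, was measured at over 1 FPKM only in PANC-1, at 5.64 to 8.19 FPKM over its 15 libraries, and no change of it was called.

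ITGA5 (ENSG00000161638, chromosome 12, 54789045 to 54813050, minus strand), the alpha chain of the classical fibronectin receptor, moved in both directions in PANC-1. It was at 89.5, 95.1 and 92.6 FPKM under siControl, 51.4, 50.9 and 50.9 after siDDX60L, 58.4, 59.6 and 60.3 after siMYEOV and 181, 176 and 175 after siKCNN4. The siKCNN4 libraries were the highest and the siDDX60L libraries the lowest, and none overlapped the controls (−0.84 ± 0.038 with adjusted p = 4.9e-09, −0.63 ± 0.038 with adjusted p = 2e-08 and 0.93 ± 0.038 with adjusted p = 7.9e-10). In MiaPaCa2 a fall was called after siS100A16 only among the 4 siRNAs, from 24.4, 25.3 and 27.6 to 15.6, 14.9 and 15.9 FPKM (−0.70 ± 0.054 with adjusted p = 2.6e-07). The siDDX60L (17.4 to 18.6 FPKM) and siMYEOV libraries (19.2 to 20.1 FPKM) of that line were also below all controls. Its siKCNN4 libraries (30.2 to 33.4 FPKM) were above them, and none of these changes was called.

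ITGA10 (ENSG00000143127, chromosome 1, 145524969 to 145543868, plus strand), a collagen-binding alpha chain known from cartilage, rose after siKCNN4 in PANC-1, from 2.27, 2.08 and 2.12 FPKM to 7.17, 6.93 and 6.62 (1.32 ± 0.072 with adjusted p = 9.5e-09). In MiaPaCa2 it was at 0.546, 0.598 and 0.592 FPKM under siControl and at 3.90, 4.04 and 3.56 in the siKCNN4 libraries, through which alone it passed the limit there. It was low after siDDX60L in PANC-1, at 0.851, 0.983 and 0.819 FPKM (−0.75 ± 0.072 with adjusted p = 3.1e-06). The siKCNN4 libraries stood above every other library of their line. Its start region is shown because it was the integrin with the largest rise in PANC-1. It covers 250 bases before and 50 bases from the start of the gene (RefSeq, GRCh38.p14, chr1:145910001-145910300, minus strand, read 5′ to 3′ along the gene), and capitals mark a TEAD motif match (GGAATG or its reverse complement). The GRCh37 annotation places ITGA10 on the plus strand and RefSeq on GRCh38.p14 on the minus strand.
ITGA10: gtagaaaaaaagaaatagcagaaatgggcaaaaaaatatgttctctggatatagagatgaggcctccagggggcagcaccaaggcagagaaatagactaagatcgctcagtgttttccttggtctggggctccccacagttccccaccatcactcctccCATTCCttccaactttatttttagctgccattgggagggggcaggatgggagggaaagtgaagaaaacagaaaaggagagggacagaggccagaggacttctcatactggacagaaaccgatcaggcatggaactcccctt

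ITGA2 (ENSG00000164171, chromosome 5, 52285170 to 52390609, plus strand), the main collagen-binding alpha chain of epithelia, was over 1 FPKM in PANC-1 and under 0.15 FPKM in every MiaPaCa2 library. It was at 91.6, 89.1 and 93.1 FPKM under siControl, 33.7, 61.0 and 60.01 after siDDX60L, 59.6, 39.1 and 40.0 after siMYEOV and 29.6, 49.3 and 49.9 after siS100A16. All 9 of these libraries were below the controls, but its replicates were the most scattered of the integrins, with SEs of 0.27. The changes were −0.86 ± 0.27 with adjusted p = 0.017, −0.99 ± 0.27 with adjusted p = 0.0059 and −1.11 ± 0.27 with adjusted p = 0.0032. Without siDDX60L replicate 1, the lowest of its group, the siDDX60L change was −0.59 and no longer called (adjusted p = 0.078). Of the remaining integrin genes, ITGAE, which pairs with ITGB7 on lymphocytes that bind E-cadherin, rose after siMYEOV in PANC-1 from 1.00, 1.10 and 1.05 to 2.13, 2.08 and 1.83 FPKM (0.56 ± 0.082 with adjusted p = 6.9e-05). ITGAE holds the gene HASPIN on its other strand, so this value is uncertain if strand was not used. ITGBL1 rose after siS100A16 in PANC-1 from 3.86, 3.29 and 4.35 to 5.78, 7.35 and 5.49 FPKM (0.57 ± 0.19 with adjusted p = 0.02), but not without siControl replicate 2 (0.49), without siS100A16 replicate 2 (0.46) or with median-of-ratios scaling (0.49). It was listed at 0 in every MiaPaCa2 library.

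**Figure D3:**
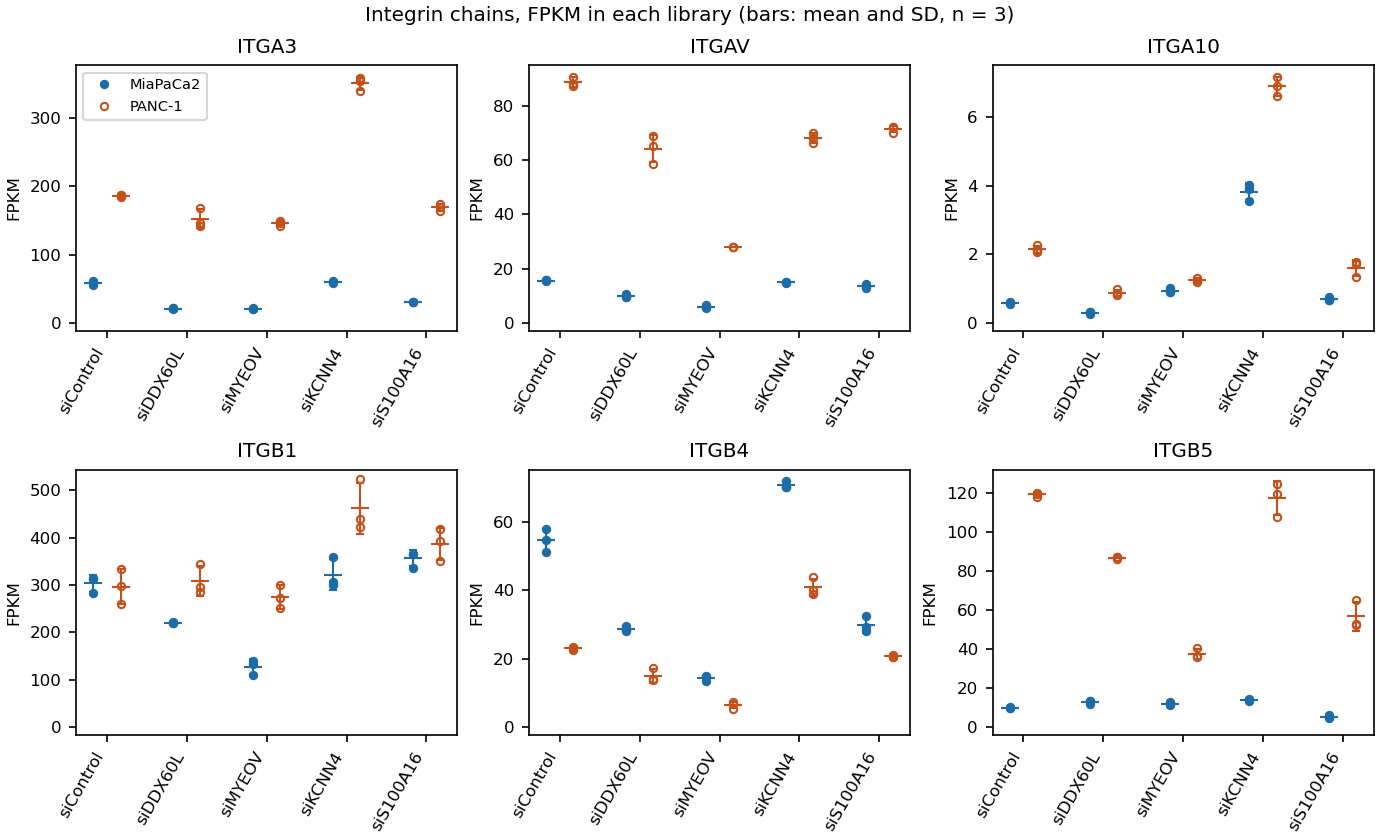
FPKM of 6 integrin chains in each library (points), with the mean and SD of each group of 3 (bars), MiaPaCa2 filled and PANC-1 open. ITGB4 and ITGAV are lowest after siMYEOV in both lines, ITGA10 is highest after siKCNN4 in both, and ITGB5 of PANC-1 is at 35.8 to 40.4 FPKM after siMYEOV, below its controls, while MiaPaCa2 is at 11.2 to 12.8, above its controls.

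Among the laminins, LAMA5 fell in 7 of the 8 comparisons. LAMA5 (ENSG00000130702, chromosome 20, 60883011 to 60942368, minus strand) encodes the alpha chain of the laminin found in most adult epithelial basement membranes, where it joins LAMB1 and LAMC1. In PANC-1 it was at 87.3, 90.7 and 90.4 FPKM under siControl, 57.9, 54.0 and 52.0 after siDDX60L, 47.4, 48.7 and 50.3 after siMYEOV, 53.1, 51.3 and 51.8 after siKCNN4 and 53.4, 52.7 and 52.6 after siS100A16. The 12 siRNA libraries formed a narrow band below the controls, and the 4 changes ran from −0.86 to −0.70, with adjusted p values of 3.6e-09 to 5.7e-08. In MiaPaCa2 the order was 15.3, 17.5 and 16.2 FPKM under siControl, 11.4, 12.4 and 13.9 after siDDX60L, 10.7, 10.1 and 9.97 after siMYEOV, 7.45, 8.03 and 8.06 after siKCNN4 and 6.40, 6.26 and 6.53 after siS100A16. Every siRNA library was again below the controls, and the last 3 groups were called (−0.62 ± 0.068 with adjusted p = 6e-06, −0.97 ± 0.068 with adjusted p = 1.4e-07 and −1.23 ± 0.068 with adjusted p = 1.6e-08), while the siDDX60L change was −0.36. The 4 comparisons of a line share their control libraries, so these are not 4 independent falls. LAMA5 overlaps ADRM1 on the other strand by 908 bases.

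The start region of LAMA5 is shown because this gene fell with nearly every siRNA (chr20:62367263-62367562, minus strand, RefSeq, GRCh38.p14). Capitals mark GC boxes (GGGCGG or its reverse complement), of which it holds 5.
LAMA5: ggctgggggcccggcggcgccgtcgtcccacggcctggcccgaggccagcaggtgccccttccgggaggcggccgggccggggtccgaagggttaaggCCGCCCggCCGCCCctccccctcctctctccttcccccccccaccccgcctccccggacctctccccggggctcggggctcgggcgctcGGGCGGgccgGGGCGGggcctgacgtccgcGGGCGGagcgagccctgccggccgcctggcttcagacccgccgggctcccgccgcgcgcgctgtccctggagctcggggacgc

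Of the partners of LAMA5, LAMC1 was called down with it after siS100A16 only and LAMB1 after none of the siRNAs, though some smaller falls cleared the controls. LAMC1 (ENSG00000135862, chromosome 1, 182992555 to 183114727, plus strand), the gamma chain of most laminins, rose after siKCNN4 and fell after siS100A16 in both lines. In MiaPaCa2 it was at 22.8, 24.4 and 23.7 FPKM under siControl, 40.3, 41.3 and 40.7 after siKCNN4 and 11.6, 11.9 and 12.2 after siS100A16 (0.76 ± 0.042 with adjusted p = 1.6e-08 and −0.93 ± 0.042 with adjusted p = 2.8e-09). In PANC-1 it was at 40.0, 42.5 and 43.3, 84.2, 84.8 and 84.6 and 25.2, 26.8 and 26.9 FPKM in the same order (1.00 ± 0.04 with adjusted p = 6.9e-10 and −0.65 ± 0.04 with adjusted p = 3.1e-08). These groups did not overlap in either line, so siKCNN4 gave more LAMC1 beside less LAMA5. LAMC1 was also below all controls after siDDX60L (17.6 to 18.7 FPKM in MiaPaCa2, 37.8 to 38.7 in PANC-1). After siMYEOV it was below them in MiaPaCa2 and above them in PANC-1. LAMB1, the beta chain, was at 5.53 to 6.18 FPKM under siControl in MiaPaCa2 and 49.8 to 50.5 in PANC-1, and its 8 changes lay between −0.37 and 0.36, none called. Its libraries were below all controls after siDDX60L, siMYEOV and siKCNN4 in PANC-1 and siMYEOV in MiaPaCa2. They were above all controls after siKCNN4 and siS100A16 in MiaPaCa2.

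LAMA3 and LAMB3 encode the alpha and beta chains of the laminin of the hemidesmosome, and neither was called. LAMB3 was just under the limit in PANC-1, at 1.38, 1.41 and 1.24 FPKM under siControl, 0.288, 0.671 and 0.27 after siDDX60L and 0.415, 0.616 and 0.671 after siMYEOV. In MiaPaCa2, LAMB3 was tested at 1.35, 1.45 and 1.55 FPKM under siControl and its changes lay between −0.19 and 0.20, none called. LAMA3 stayed under the limit in both lines.

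Of the other laminin chains, LAMA4 (ENSG00000112769, chromosome 6, 112429134 to 112576141, minus strand), an alpha chain of vessel and muscle basement membranes, rose after all 4 siRNAs in PANC-1. It was at 6.53, 6.39 and 4.99 FPKM under siControl, 11.4, 13.7 and 11.9 after siDDX60L, 9.95, 10.8 and 8.56 after siMYEOV, 20.7, 20.1 and 19.0 after siKCNN4 and 11.1, 13.0 and 13.6 after siS100A16. All 12 siRNA libraries were above the 3 controls and those of siKCNN4 were the highest (0.94 ± 0.11 with adjusted p = 1.4e-05, 0.63 ± 0.11 with adjusted p = 0.00022, 1.59 ± 0.11 with adjusted p = 6.7e-08 and 0.96 ± 0.11 with adjusted p = 7.4e-06). LAMC3 rose after siS100A16 in PANC-1, from 3.95, 3.65 and 3.73 to 8.43, 8.52 and 8.004 FPKM (0.96 ± 0.058 with adjusted p = 2.8e-08). LAMB2 was called in neither line, with changes of −0.22 to 0.24, nor was LAMA2 in MiaPaCa2, where it stood near 1 FPKM.

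COL4A1 (ENSG00000187498, chromosome 13, 110801310 to 110959504, minus strand) and COL4A2 (ENSG00000134871, chromosome 13, 110958159 to 111165556, plus strand) are the common chains of type IV collagen and form trimers with each other. In MiaPaCa2 both rose after siDDX60L. COL4A1 was at 2.59, 2.48 and 3.06 FPKM under siControl, 6.36, 6.45 and 6.03 after siDDX60L and 4.32, 5.05 and 5.20 after siMYEOV (0.98 ± 0.08 with adjusted p = 7e-07 and 0.66 ± 0.08 with adjusted p = 1.4e-05). COL4A2 was at 8.91, 8.50 and 8.82 and 12.5, 13.3 and 12.8 FPKM under siControl and siDDX60L (0.51 ± 0.061 with adjusted p = 2e-05), and at 9.75, 8.78 and 8.85 after siMYEOV, where the change was 0.05. The COL4A2 rise was near the 0.5 limit and fell under it without siControl replicate 2 (0.49), without siDDX60L replicate 2 (0.48) or with median-of-ratios scaling (0.45). In PANC-1, COL4A1 was under the limit and no change of COL4A2 was called.

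The genes COL4A1 and COL4A2 lie head to head and share a start region, which is shown for this reason. Their start sites are 127 bases apart on opposite strands of chromosome 13, and the 2 windows (RefSeq, GRCh38.p14, chr13:110307108-110307407 minus strand and chr13:110307034-110307333 plus strand) have 226 bases in common. Capitals again mark GC boxes. On GRCh37 the 2 genes overlap by 1346 bases, where their reads cannot be told apart if strand was not used.
COL4A1: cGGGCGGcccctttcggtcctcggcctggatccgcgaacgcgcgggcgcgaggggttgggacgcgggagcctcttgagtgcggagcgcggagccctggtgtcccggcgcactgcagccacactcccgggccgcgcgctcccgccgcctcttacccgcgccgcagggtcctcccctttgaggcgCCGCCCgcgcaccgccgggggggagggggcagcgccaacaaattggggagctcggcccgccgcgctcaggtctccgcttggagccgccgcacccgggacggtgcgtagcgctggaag
COL4A2: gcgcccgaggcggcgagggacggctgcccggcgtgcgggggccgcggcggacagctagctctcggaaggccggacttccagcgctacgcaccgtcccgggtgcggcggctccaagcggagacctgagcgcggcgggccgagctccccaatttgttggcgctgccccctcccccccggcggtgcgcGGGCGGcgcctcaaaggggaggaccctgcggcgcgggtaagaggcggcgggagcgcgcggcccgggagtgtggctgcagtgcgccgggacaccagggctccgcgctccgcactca

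COL7A1 (ENSG00000114270, chromosome 3, 48601506 to 48632762, minus strand), which forms the anchoring fibrils that tie the basement membrane to the stroma below, had the largest falls of PANC-1. It was at 14.4, 14.5 and 15.9 FPKM under siControl, 6.60, 5.88 and 5.83 after siDDX60L, 2.79, 3.05 and 2.80 after siMYEOV and 5.63, 5.54 and 5.74 after siKCNN4. These 9 libraries were all below the controls, with changes of −1.16 ± 0.056 with adjusted p = 8.8e-09, −2.04 ± 0.056 with adjusted p = 3.3e-11 and −1.26 ± 0.056 with adjusted p = 1.7e-09. After siS100A16 it held 13.8, 13.6 and 13.5 FPKM, also below the controls, and the change of −0.12 was not called. Its start region (chr3:48595280-48595579, minus strand, RefSeq, GRCh38.p14) is shown because, of the 30 tested members whose start regions could be searched, it alone had a match to the NF-kB motif used here. Capitals mark that match, the TATA box motif (TATAAA or its reverse complement) and 3 GC boxes, in this order along the sequence.
COL7A1: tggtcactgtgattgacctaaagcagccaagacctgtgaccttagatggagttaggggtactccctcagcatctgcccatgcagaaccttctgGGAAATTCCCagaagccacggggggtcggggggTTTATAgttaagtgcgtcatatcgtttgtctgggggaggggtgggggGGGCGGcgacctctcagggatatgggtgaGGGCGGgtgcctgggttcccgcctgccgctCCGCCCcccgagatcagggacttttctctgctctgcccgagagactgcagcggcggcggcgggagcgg

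COL17A1 (ENSG00000065618, chromosome 10, 105791044 to 105845638, minus strand), a transmembrane collagen of the hemidesmosome, was over 1 FPKM in MiaPaCa2 and under 0.2 FPKM in every PANC-1 library. It was at 36.97, 40.3 and 38.5 FPKM under siControl, 27.2, 22.6 and 23.3 after siDDX60L, 23.0, 17.9 and 21.6 after siMYEOV and 62.0, 63.5 and 58.8 after siS100A16. It fell after the first 2 siRNAs and rose after siS100A16, with no overlap with the controls (−0.65 ± 0.085 with adjusted p = 4.3e-05, −0.86 ± 0.085 with adjusted p = 2e-06 and 0.66 ± 0.085 with adjusted p = 2.8e-05). ITGB4, which joins it in the hemidesmosome, fell after all 3 of these siRNAs in the same cells. COL18A1 fell after siMYEOV in both lines, from 393, 388 and 398 to 173, 175 and 200.3 FPKM in PANC-1 (−1.10 ± 0.094 with adjusted p = 4.7e-07) and from 38.5, 34.1 and 38.8 to 21.7, 20.7 and 21.6 in MiaPaCa2 (−0.77 ± 0.065 with adjusted p = 5.6e-07). It also fell after siS100A16 in MiaPaCa2 (−1.004 ± 0.065 with adjusted p = 6.2e-08) and after siDDX60L in PANC-1 (−0.57 ± 0.094 with adjusted p = 0.00028), the latter not without siDDX60L replicate 2 (−0.48). COL18A1 overlaps SLC19A1 on the other strand.

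COL4A5 rose after siKCNN4 in PANC-1, from 2.10, 2.28 and 2.25 to 4.19, 4.02 and 4.44 FPKM (0.70 ± 0.082 with adjusted p = 1.1e-05), and COL8A2, a network collagen known from the cornea, fell after siMYEOV in PANC-1, from 2.25, 1.62 and 1.78 to 0.493, 0.424 and 0.526 FPKM (−0.96 ± 0.08 with adjusted p = 4.1e-07). COL4A5 normally trimerises with COL4A6, which was under 0.1 FPKM in every group, or with COL4A3 and COL4A4, which were too.

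The fibrillar chains COL5A2 and COL11A1 rose in PANC-1 with every siRNA. COL5A2 (ENSG00000204262, chromosome 2, 189896624 to 190090038, minus strand), a chain of type V collagen that sets the width of type I fibres, was at 20.1, 23.5 and 22.5 FPKM under siControl, 41.6, 41.5 and 44.05 after siDDX60L, 48.0, 39.5 and 48.6 after siMYEOV, 107, 109 and 112 after siKCNN4 and 36.9, 39.0 and 38.6 after siS100A16. All 12 siRNA libraries were above the controls, and the siKCNN4 libraries were more than 2 times as high as any other (0.92 ± 0.074 with adjusted p = 7e-07, 1.01 ± 0.074 with adjusted p = 1.3e-07, 2.26 ± 0.074 with adjusted p = 1.5e-10 and 0.77 ± 0.074 with adjusted p = 1.9e-06). In MiaPaCa2, where COL5A2 was already at 175 to 191 FPKM, its changes of 0.06 to 0.36 were not called. COL11A1 (ENSG00000060718, chromosome 1, 103342023 to 103574428, minus strand), a fibrillar chain best known from cartilage and from tumour stroma, was at 10.1, 10.4 and 10.7 FPKM under siControl, 21.9, 23.2 and 22.3 after siDDX60L, 27.1, 29.6 and 28.5 after siMYEOV, 25.4, 25.6 and 27.5 after siKCNN4 and 18.6, 20.3 and 18.9 after siS100A16 in PANC-1. Again every siRNA library was above every control (1.04 ± 0.05 with adjusted p = 9.4e-09, 1.37 ± 0.05 with adjusted p = 3.2e-10, 1.25 ± 0.05 with adjusted p = 7.9e-10 and 0.83 ± 0.05 with adjusted p = 3.2e-08). As with LAMA4 and LAMA5, the 4 comparisons rest on the same 3 control libraries.

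COL1A2 (ENSG00000164692, chromosome 7, 94024207 to 94060539, plus strand) fell after all 4 siRNAs in MiaPaCa2, where its partner COL1A1 was at 0.168 to 0.524 FPKM under siControl. It was at 63.7, 68.7 and 68.4 FPKM under siControl, 45.2, 45.1 and 43.2 after siDDX60L, 40.0, 41.8 and 40.6 after siMYEOV, 40.8, 41.7 and 41.5 after siKCNN4 and 14.2, 15.2 and 15.5 after siS100A16. The siS100A16 libraries were the lowest by far (−2.09 ± 0.042 with adjusted p = 7.4e-12), and the other 3 groups formed a band between them and the controls (−0.58, −0.70 and −0.68, adjusted p from 2.3e-08 to 2.5e-07). In PANC-1, COL1A1 rose after siKCNN4, from 5.599, 7.17 and 5.77 to 11.4, 9.64 and 9.51 FPKM (0.64 ± 0.13 with adjusted p = 0.00072). COL3A1 (ENSG00000168542, chromosome 2, 189839099 to 189877472, plus strand), the chain of type III collagen, rose after siKCNN4 and fell after siS100A16 in MiaPaCa2, from 7.84, 8.71 and 8.69 FPKM to 22.3, 21.9 and 22.0 and 3.98, 4.69 and 4.39 (1.29 ± 0.059 with adjusted p = 3e-09 and −0.82 ± 0.059 with adjusted p = 1.5e-07). The summed fibroblast markers of MiaPaCa2 moved with the siKCNN4 libraries, from 2.48 to 3.08 FPKM under siControl to 11.5 to 14.4 FPKM, nearly all of it ACTA2 (9.93 to 12.1 FPKM), while DCN, LUM and PDGFRA were under 0.1 FPKM. After siS100A16, where COL3A1 fell, that sum was also above the controls, at 5.49 to 6.74 FPKM. COL27A1 passed the limit in PANC-1 only through siControl, and was at 1.87, 1.83 and 1.82 FPKM there, 0.522, 0.69 and 0.703 after siMYEOV and 0.886, 1.02 and 0.968 after siKCNN4.

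The chains of type VI collagen, which forms beaded filaments around cells, moved the same way in some comparisons and not in others. Differences between the chains were not tested. In PANC-1, COL6A1 fell after siMYEOV from 17.0, 17.4 and 17.3 to 7.76, 8.44 and 8.59 FPKM (−0.98 ± 0.058 with adjusted p = 1.9e-08), and COL6A2 from 12.9, 13.5 and 12.2 to 9.13, 6.60 and 8.38 (−0.63 ± 0.10 with adjusted p = 0.00015). COL6A2 rose there after siKCNN4, to 20.03, 20.7 and 17.6 FPKM (0.56 ± 0.10 with adjusted p = 0.00044), and after siS100A16, to 19.3, 19.7 and 18.6 FPKM (0.54 ± 0.10 with adjusted p = 0.00056), whereas COL6A1 changed by −0.03 and −0.05. With median-of-ratios scaling, this siS100A16 rise of COL6A2 was 0.45, under the limit. In MiaPaCa2, COL6A3 rose after siKCNN4 from 14.0, 18.2 and 17.3 to 35.9, 39.0 and 36.2 FPKM (1.13 ± 0.12 with adjusted p = 3.7e-06), and COL6A2 from 25.2, 28.3 and 27.1 to 40.5, 39.7 and 36.0 (0.51 ± 0.065 with adjusted p = 2.4e-05). This COL6A2 rise passed 0.5 narrowly and was under it without siControl replicate 1 (0.47), siKCNN4 replicate 1 (0.48) or siKCNN4 replicate 2 (0.497), and with median-of-ratios scaling (0.43). COL6A1 in the same libraries changed by 0.49, just under the limit, with all 3 libraries (64.1 to 66.2 FPKM) above the controls (44.01 to 47.4 FPKM).

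The FACIT chains COL9A2 and COL9A3, which decorate cartilage fibrils, were measured in PANC-1. COL9A3 fell after siMYEOV, from 21.3, 21.8 and 20.7 to 11.4, 10.9 and 11.1 FPKM (−0.87 ± 0.043 with adjusted p = 3.9e-09), and was at 32.2, 29.8 and 30.3 after siS100A16 (0.51 ± 0.043 with adjusted p = 5.8e-07). COL9A2 rose from 1.75, 1.98 and 1.99 FPKM to 3.57, 3.00 and 3.09 after siDDX60L (0.54 ± 0.075 with adjusted p = 7.2e-05) and 2.99, 3.31 and 3.45 after siS100A16 (0.55 ± 0.075 with adjusted p = 4.3e-05). Of these calls, the siDDX60L rise of COL9A2 went under 0.5 without siControl replicate 1 (0.497) or siDDX60L replicate 1 (0.48) and with median-of-ratios scaling (0.48), and the siS100A16 rise of COL9A3 without siControl replicate 3 (0.49) or siS100A16 replicate 1 (0.48). With median-of-ratios scaling, the siS100A16 rises of COL9A3 (0.41) and COL9A2 (0.47) were also under 0.5. COL13A1, a transmembrane collagen, fell after siDDX60L in MiaPaCa2 from 3.62, 4.11 and 3.19 to 1.82, 1.47 and 1.37 FPKM (−0.86 ± 0.18 with adjusted p = 0.0014), and rose in PANC-1 after siMYEOV (0.56 ± 0.095 with adjusted p = 0.00019) and siKCNN4 (0.75 ± 0.095 with adjusted p = 1.9e-05). COL26A1, a little-studied collagen, was at 0.755, 0.861 and 0.966 FPKM under siControl in MiaPaCa2, 2.11, 2.11 and 2.00 after siDDX60L and 2.08, 2.50 and 2.57 after siMYEOV. It passed the limit there through these 2 siRNAs, so its changes (0.73 and 0.86) were built into its selection and are a description.

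**Figure D4:**
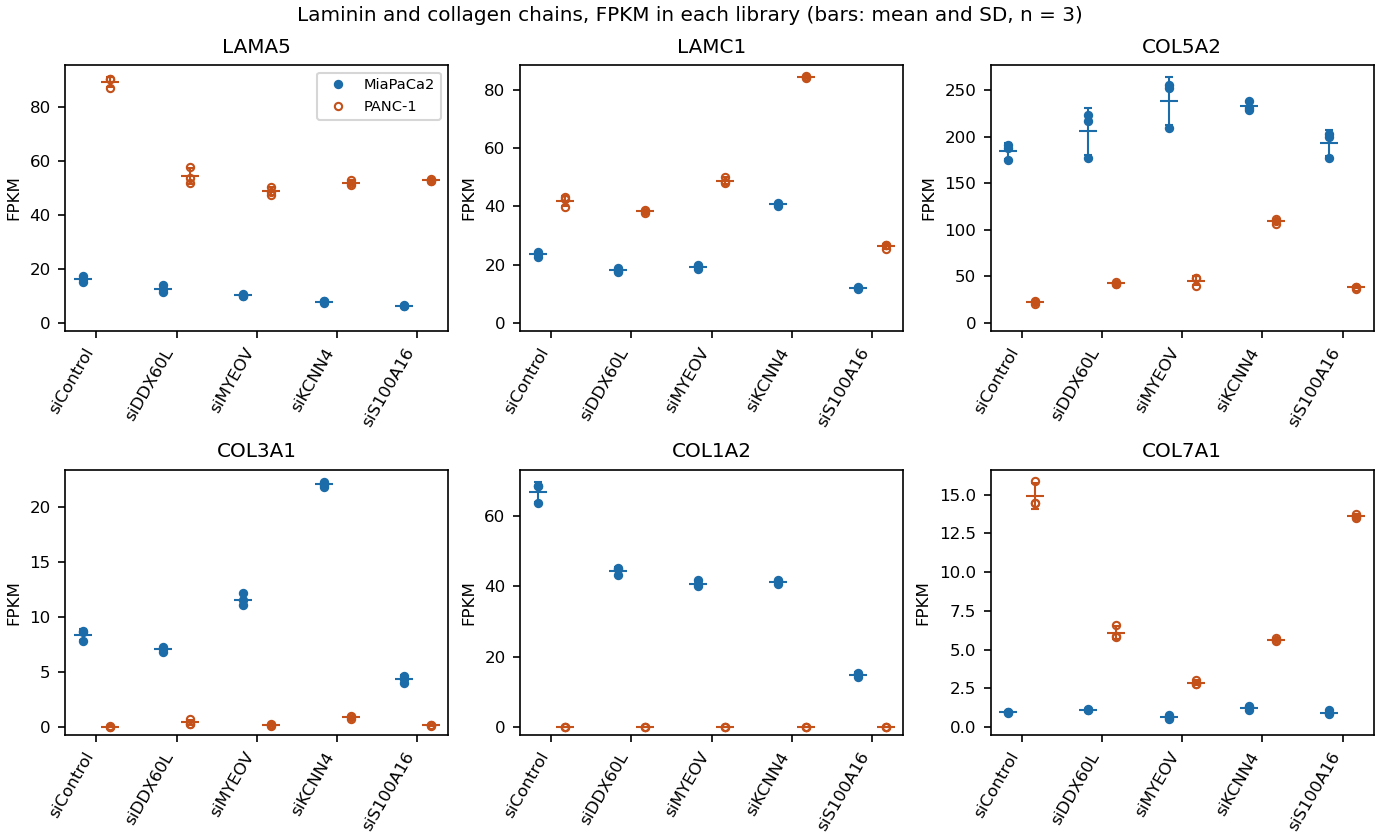
FPKM of 2 laminin and 4 collagen chains in each library (points), with the mean and SD of each group of 3 (bars), MiaPaCa2 filled and PANC-1 open. LAMA5 is below its controls in every siRNA group, COL5A2 of PANC-1 is highest after siKCNN4 (107 to 112 FPKM), COL1A2 of MiaPaCa2 is lowest after siS100A16 (14.2 to 15.5 FPKM), and COL7A1 of PANC-1 is lowest after siMYEOV (2.79 to 3.05 FPKM).

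The study used MYEOV as a positive control gene beside DDX60L, so the 2 siRNAs were also compared with each other. siMYEOV gave lower ITGAV and ITGB4 than siDDX60L in both lines. In MiaPaCa2, 3 of 28 tested members were higher after siMYEOV and 3 lower (21.4%, beside 22.4% of all genes, 12.6% up and 9.84% down, so the share is that of the background), or 3 and 6 with median-of-ratios scaling. The lower ones were ITGB4 (−0.96 ± 0.061 with adjusted p = 4.6e-08), ITGB1 (−0.79 ± 0.086 with adjusted p = 6.9e-06) and ITGAV (−0.63 ± 0.067 with adjusted p = 5.2e-06), and the higher ones COL13A1 (0.66), COL3A1 (0.64) and ITGA10 (0.58). The COL13A1 difference was 0.44 without siMYEOV replicate 1, under the limit. ITGA10, which passed 1 FPKM in this line only through siKCNN4, was at 0.900 to 1.02 FPKM after siMYEOV and 0.268 to 0.319 after siDDX60L. In PANC-1, 1 of 33 was higher and 9 lower (30.3%, beside 23.8%, 9.08% up and 14.7% down), with ITGB5 (−1.19 ± 0.079 with adjusted p = 8e-08), ITGAV (−1.17 ± 0.049 with adjusted p = 1.7e-09), ITGB4 (−1.10 ± 0.097 with adjusted p = 9.8e-07), COL9A2 (−0.88 ± 0.075 with adjusted p = 7e-07) and COL7A1 (−0.87 ± 0.056 with adjusted p = 6e-08) as the largest differences. ITGA3 of MiaPaCa2, lowered by both, did not differ between them beyond its error (−0.01 ± 0.042 with adjusted p = 0.86).

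Whether an siRNA acted differently in the 2 lines was tested as the difference of its 2 effects over all 30 libraries. ITGA3 and COL5A2 were more positive in PANC-1 than in MiaPaCa2 for all 4 siRNAs, and these 4 differences share both sets of control libraries. For ITGA3 they were 1.14 after siDDX60L, 1.10 after siMYEOV, 0.87 after siKCNN4 and 0.78 after siS100A16, each with an SE of 0.067 and adjusted p values of 2.5e-11 to 7.9e-09. For COL5A2 they were 0.77, 0.64, 1.93 and 0.71, each with an SE of 0.12 and adjusted p values of 3.9e-11 to 0.00027. Differences of over 1 in other members were those of COL13A1 after siDDX60L (1.20 ± 0.21 with adjusted p = 0.00013) and of ITGB5 (−1.88 ± 0.11 with adjusted p = 1.7e-11), ITGB1 (1.13 ± 0.15 with adjusted p = 2.4e-06) and COL6A1 (−1.04 ± 0.067 with adjusted p = 5.7e-11) after siMYEOV. Of the 20 members tested in both lines, 4 were more positive in PANC-1 and 3 more negative for siDDX60L, beside 9.98% of the 11084 genes tested (5.3% and 4.68%). For siMYEOV the counts were 4 and 6, beside 15.4% (5.21% and 10.2%). They were 4 and 3 for siKCNN4, beside 15.2% (4.53% and 10.7%), and 4 and 1 for siS100A16, beside 11.8% (8.04% and 3.8%). The more negative ones include COL4A2 for siDDX60L and siMYEOV and COL27A1 for siKCNN4, which passed the limit in PANC-1 only through siControl. For COL4A2 after siDDX60L the effect was −0.04 in PANC-1 and 0.51 in MiaPaCa2. LAMA5 had no called difference for any siRNA, with values from −0.35 to 0.48, of which those for siDDX60L, siMYEOV and siS100A16 passed the adjusted p alone.

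**Figure D5:**
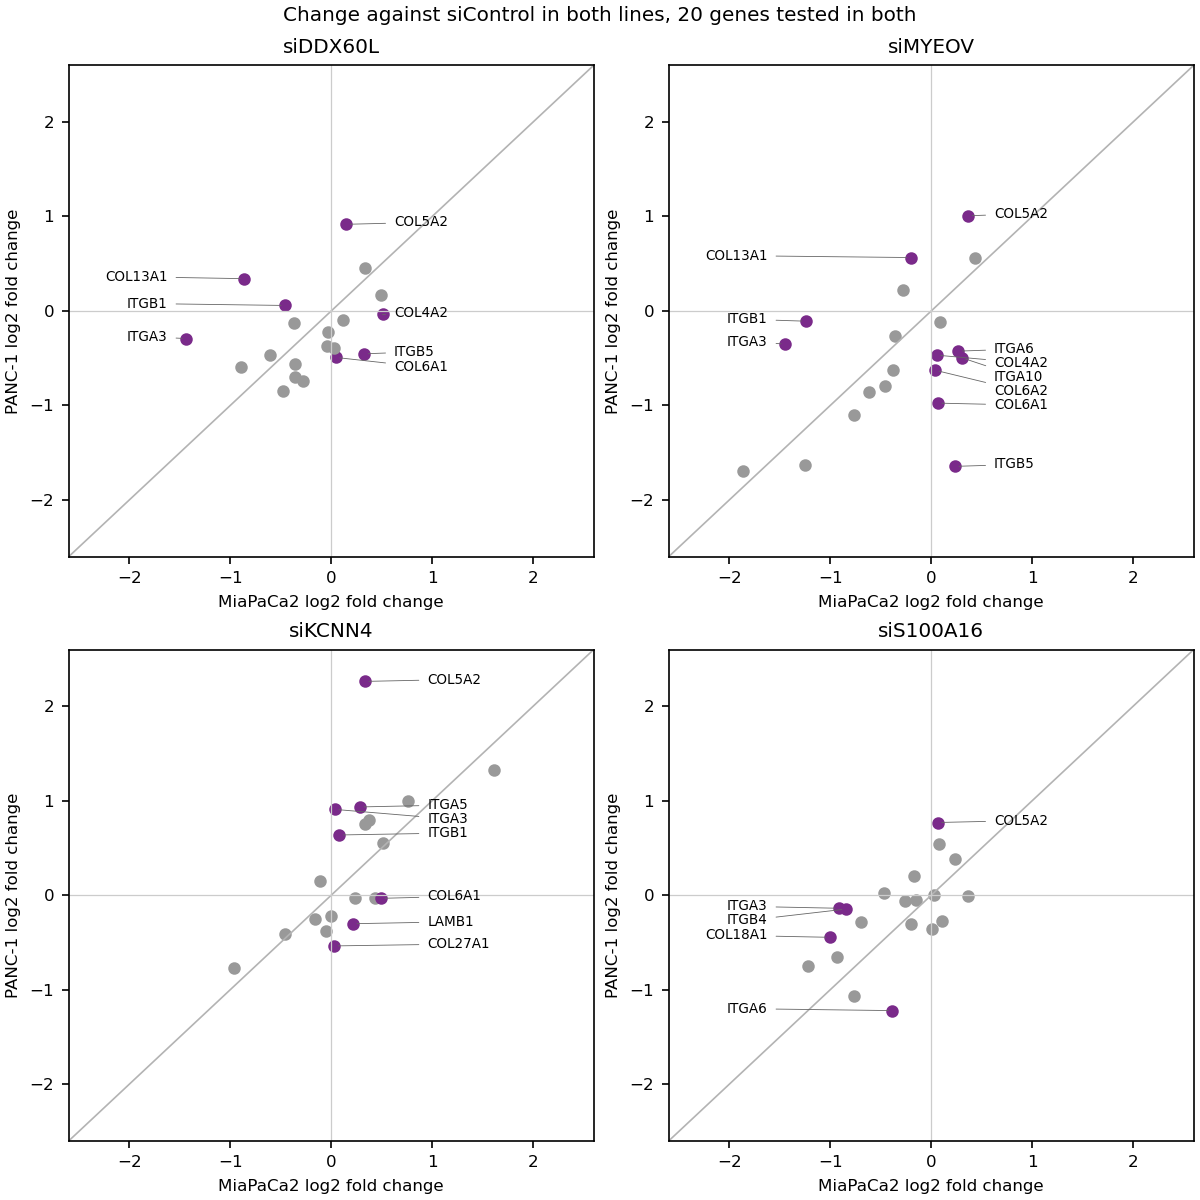
Log2 fold change of FPKM + 1 against siControl in MiaPaCa2 (x axis) and PANC-1 (y axis) for the 20 members tested in both lines, a panel per siRNA, with the diagonal of equal effects. Named purple points are members whose effects differed between the lines by limma's interaction test, such as ITGB5 after siMYEOV (0.23 in MiaPaCa2, −1.65 in PANC-1) and COL5A2 after siKCNN4 (0.33 and 2.26).

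Genes that work with the members were read from 4 lists. Of 36 integrin adaptors and activators, 32 were tested in MiaPaCa2, where 0 rose and 7 fell after siDDX60L (21.9%, beside 16.1% of all genes) and 3 rose and 11 fell after siMYEOV (43.8%, beside 26.7%), with medians of −0.15 and −0.28 against 0.05 and 0.11 over all genes. After siKCNN4 the counts were 3 and 5 (25%, beside 23.2%), and after siS100A16 1 and 5 (18.8%, beside 22.1%), both near the share of all genes. FLNA, the filamin that links integrin beta chains to actin, had the largest fall of the list after siMYEOV in both lines (−1.64 ± 0.045 with adjusted p = 2.7e-11 in MiaPaCa2 and −1.05 ± 0.048 with adjusted p = 2.4e-09 in PANC-1). After siS100A16 in MiaPaCa2 the largest fall was that of RAP1B, a small GTPase that activates integrins (−1.65 ± 0.17 with adjusted p = 3.5e-06). In PANC-1 the counts over 31 tested adaptors were 1 up and 5 down after siDDX60L (19.4%, beside 17.5% of all genes), 4 and 6 after siMYEOV (32.3%, beside 29.4%), 3 and 6 after siKCNN4 (29%, beside 26.7%), and 6 and 4 after siS100A16 (32.3%, beside 25.4%).

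Of 32 collagen processing genes, 23 were tested in MiaPaCa2 and 25 in PANC-1. SERPINH1, the chaperone that collagen needs to fold, had the largest fall of the list after siKCNN4 in both lines (−2.12 ± 0.13 with adjusted p = 5.3e-08 and −1.63 ± 0.077 with adjusted p = 2.8e-09), the siRNA after which 6 of the 14 tested collagens of PANC-1 rose. It rose after siMYEOV in both (0.81 ± 0.13 with adjusted p = 0.0002 and 0.69 ± 0.077 with adjusted p = 5.6e-06). LOXL2, which crosslinks collagen, fell after siMYEOV in both lines (−1.18 ± 0.054 with adjusted p = 2.2e-09 and −1.42 ± 0.071 with adjusted p = 4.4e-09), and the crosslinking enzyme TGM2 fell after siDDX60L in both (−1.35 ± 0.051 with adjusted p = 8.6e-10 and −1.19 ± 0.044 with adjusted p = 1e-09) and rose after siS100A16 in both (0.77 and 1.27). Over the whole list in PANC-1, 6 rose and 7 fell after siMYEOV (52%, beside 29.4% of all genes), 5 and 5 after siKCNN4 (40%, beside 26.7%), 1 and 3 after siDDX60L (16%, beside 17.5%) and 3 and 4 after siS100A16 (28%, beside 25.4%). In MiaPaCa2 the counts were 6 and 2 after siMYEOV (34.8%, beside 26.7%), 3 and 2 after siKCNN4 (21.7%, beside 23.2%), 1 and 3 after siDDX60L (17.4%, beside 16.1%) and 3 and 3 after siS100A16 (26.1%, beside 22.1%). The shares after siDDX60L in both lines and after siKCNN4 in MiaPaCa2 are near those of all genes.

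Among 13 other matrix receptors, 12 were tested in each line. In MiaPaCa2, 0 were called by limma after siDDX60L, beside 16.1% of all genes. There 6 of the 12 had an unadjusted p under 0.05 and also passed the adjusted p with changes of under 0.5. DAG1 had the largest fall of the list after siDDX60L (−1.11) and after siMYEOV (−1.21) in this line, and neither was called. In the same line, 0 rose and 3 fell after siMYEOV (25%, beside 26.7% of all genes), 3 rose and 0 fell after siKCNN4 (25%, beside 23.2%), and 0 rose and 4 fell after siS100A16 (33.3%, beside 22.1%). BCAM, a receptor for the LAMA5 chain, fell in PANC-1 after siDDX60L (−0.96 ± 0.19 with adjusted p = 0.001), siMYEOV (−1.68 ± 0.19 with adjusted p = 6.6e-06), siKCNN4 (−1.21 ± 0.19 with adjusted p = 0.00013) and siS100A16 (−0.62 ± 0.19 with adjusted p = 0.014), and was the most lowered of its list after the first 3 of these. SDC4, a syndecan of focal adhesions, rose after siKCNN4 in both lines (1.77 ± 0.04 with adjusted p = 1.4e-11 and 0.57 ± 0.033 with adjusted p = 1.7e-08). In PANC-1, 0 of the 12 rose and 6 fell after siMYEOV, (50%, beside 29.4%), with a median of −0.51 against 0.04 over all genes, and the counts were 0 and 2 after siDDX60L (16.7%, beside 17.5%), 2 and 3 after siKCNN4 (41.7%, beside 26.7%), and 0 and 4 after siS100A16 (33.3%, beside 25.4%). Of 23 basement membrane partners and matrix glycoproteins, 6 were tested in MiaPaCa2 and 13 in PANC-1. In PANC-1 their counts were 1 up and 2 down after siDDX60L (23.1%, beside 17.5% of all genes), 1 and 5 after siMYEOV (46.2%, beside 29.4%), 3 and 2 after siKCNN4 (38.5%, beside 26.7%), and 1 and 2 after siS100A16 (23.1%, beside 25.4%). In MiaPaCa2, with only 6 tested, they were 0 and 1, 0 and 3, 2 and 2, and 0 and 3 in that order, beside 16.1%, 26.7%, 23.2% and 22.1% of all genes. NID1, which bridges laminin and type IV collagen, fell after siMYEOV in PANC-1 (−1.34 ± 0.15 with adjusted p = 7.1e-06), TNC rose there after siKCNN4 (1.15 ± 0.086 with adjusted p = 1.7e-07), and ECM1 fell in MiaPaCa2 after siDDX60L (−1.43 ± 0.12 with adjusted p = 1.1e-06), siMYEOV (−0.88) and siS100A16 (−1.07).

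Start regions of 300 bases were found in RefSeq for 30 of the 41 tested members, 38 regions in all, and searched on both strands for 5 motifs. The AP-1 motif TGANTCA was in a region of LAMB3 and ITGA5 (2 members), where 7.71% of 35116 RefSeq start regions hold it. GGAATG, the TEAD motif, was in regions of ITGA10, LAMA2, ITGB1 and ITGA5 (4 members, against 14.0% of regions). The GC box GGGCGG was in 20 members (45.0% of regions), the TATA box motif TATAAA in 7 (11.5%) and the NF-kB motif in COL7A1 alone (1.91%). A member with several regions was counted if any of them matched, while the percentages are of single regions, so the 2 are not like measures. A match describes the letters of the region and not a bound factor.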

How the data were processed

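RNA-seq was done on 30 libraries, 3 in each of 10 groups of siRNA-transfected MiaPaCa2 or PANC-1 cells. The authors deposited 1 table of FPKM values per gene and library. The submitters' processing notes name TopHat2 version 2.0.12 and the build GRCh37, and the study's methods the Ensembl annotation of that build. No source used here names the program behind the FPKM values or says whether it used strand. The labels and the methods name different RNA extraction and library kits, of which that in the methods is stranded.

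Of the low FPKM values, 17.7% came out as whole reads within 0.05, so read depth is unknown and no count test was run. FPKM was tested as log2(FPKM + 1) with limma version 3.58.1 in R 4.3.3, with a mean-variance trend and Benjamini-Hochberg adjustment over all genes tested. The 15 libraries of a line were fitted together (genes averaging 1 FPKM or more), and all 30 for differences between lines. A call needed an adjusted p below 0.05 and a log2 fold change of at least 0.5 in either direction. The scripts were tested on simulated data.

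Values per library are given for the 2 largest called rises and falls of members in each comparison with siControl and for the main receptor, laminin and collagen chains, and other members called at least once are named with their fold change, except 1 that is counted but not reported here or drawn in the figures. The rule for members uses symbols only, but the gene families and lists were chosen with earlier results of these data known. Alternatives were a pseudocount of 0.25, no filter, median-of-ratios scaling, no trend, a replicate block, only the groups compared, leaving out each library and, chosen after seeing the data, a filter on the siControl libraries. Of the 41 tested members, 11 overlap another protein-coding gene on GRCh37.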

Additional observations from a re-analysis of the deposited data

Results flagged for a closer look

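The effect of an siRNA differed between the 2 lines in 29 cases among the 20 members tested in both, by limma's test of the difference (PANC-1 effect minus MiaPaCa2 effect, log2 scale, 30 libraries). These were singled out because the lines differed under the same contrast, and the 4 contrasts of a line share their 3 siControl libraries.

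After siDDX60L the difference was positive for COL13A1 (1.20), ITGA3 (1.14), COL5A2 (0.77) and ITGB1 (0.51), and negative for COL6A1 (−0.54), COL4A2 (−0.55) and ITGB5 (−0.78). After siMYEOV it was positive for ITGB1 (1.13), ITGA3 (1.10), COL13A1 (0.77) and COL5A2 (0.64), and negative for COL4A2 (−0.52), COL6A2 (−0.66), ITGA6 (−0.69), ITGA10 (−0.80), COL6A1 (−1.04) and ITGB5 (−1.88). After siMYEOV, ITGB1 was called down in MiaPaCa2 and not in PANC-1, and ITGB5 in PANC-1 and not in MiaPaCa2.

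After siKCNN4 the difference was positive for COL5A2 (1.93), ITGA3 (0.87), ITGA5 (0.65) and ITGB1 (0.56), and negative for LAMB1 (−0.52), COL6A1 (−0.53) and COL27A1 (−0.56). After siS100A16 it was positive for ITGA3 (0.78), COL5A2 (0.71), ITGB4 (0.70) and COL18A1 (0.56), and negative for ITGA6 (−0.84). COL4A2 and COL27A1 passed the limit in PANC-1 only through siControl, so a fall in that line was built into their selection. The siDDX60L effect of COL4A2 was −0.04 in PANC-1 and 0.51 in MiaPaCa2.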

How the results depend on the processing

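Of the 179 calls of members over the 15 comparisons (those that the limit of 1 FPKM built in included), 160 held under every alternative that was run for them, 19 were lost under at least 1, and 0 reversed. Of the 97 calls against siControl, 88 held. Pseudocount 0.25, no trend and the fit of only the groups compared lost none, no filter lost 1 (ITGBL1 in siMYEOV minus siDDX60L, PANC-1, adjusted p = 0.052 by limma), and median-of-ratios scaling lost 12. With no filter, more members were tested and the differences between lines rose to 17 for siDDX60L (7 with the filter), 25 for siMYEOV (10), 16 for siKCNN4 (7) and 17 for siS100A16 (5), and pseudocount 0.25 gave 8 for siS100A16. The members added without the filter averaged under 1 FPKM in at least 1 line. The share of all genes called in these settings is not given here, so the counts cannot be set against it.

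Leaving out 1 library gave 8 to 11 called members for siDDX60L in MiaPaCa2 and 11 to 13 in PANC-1, 10 to 11 and 19 to 21 for siMYEOV, 6 to 9 and 17 to 18 for siKCNN4, and 10 to 11 and 12 to 13 for siS100A16. Differences between lines that fell under 0.5 were those of ITGB1 after siDDX60L (0.42 without PANC-1 siControl replicate 1, 0.43 without PANC-1 siDDX60L replicate 2, 0.49 without MiaPaCa2 siControl replicate 1 or 3) and after siKCNN4 (0.46 without PANC-1 siControl replicate 1 or siKCNN4 replicate 3). The COL4A2 difference went to −0.47 (siDDX60L) and −0.44 (siMYEOV) without PANC-1 siControl replicate 3, and to −0.48 (siMYEOV) without siMYEOV replicate 1 of either line. LAMB1 went to −0.48 and COL6A1 to −0.49 after siKCNN4 without MiaPaCa2 siControl replicate 1, and LAMB1 to −0.49 without MiaPaCa2 siKCNN4 replicate 3. For siMYEOV minus siDDX60L in PANC-1, ITGBL1 lost its call without siDDX60L replicate 2 (0.40) or 3 (0.52, adjusted p = 0.068 by limma) or siMYEOV replicate 3 (0.41), and COL18A1 without siDDX60L replicate 1 (−0.42) or siMYEOV replicate 1 (−0.498). The causes were not tested.

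Libraries with the same replicate number did not deviate together, with correlations of −0.0395 to 0.0758 in MiaPaCa2 and −0.0547 to 0.16 in PANC-1 (0 and 1 of 12 pairs over 0.1). With the replicate number as a block, the calls were 9, 10, 7 and 10 in MiaPaCa2 and 12, 19, 17 and 13 in PANC-1 for siDDX60L, siMYEOV, siKCNN4 and siS100A16, the same as without it. The block changed no other call. Single-library depth is unknown, which limits what can be said of members near 1 FPKM.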

Other observations

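Some members under the limit of 1 FPKM also moved, and were not tested. COL21A1, a fibril-associated collagen, was at 0.378 to 0.519 FPKM in the siControl libraries of PANC-1 and 1.88 to 2.01 after siKCNN4. ITGB8, a beta partner of ITGAV that activates TGF-beta, was at 0.747 to 0.863 FPKM in PANC-1 under siControl, 1.64 to 1.81 after siKCNN4 and 0.253 to 0.379 after siMYEOV. LAMA3, the alpha chain of the hemidesmosome laminin, was at 0.629 to 0.812 FPKM under siControl and 0.902 to 1.39 after siDDX60L in PANC-1, where LAMB3 was lower. In each of these groups the 3 siRNA libraries did not overlap the 3 controls.

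The summed FPKM of the 26 integrin genes ranged from 199.9 to 566 over the libraries of MiaPaCa2 and from 617 to 1423 in PANC-1. The laminin sums ranged from 39.9 to 75.3 and from 177 to 255, and the collagen sums from 386 to 545 and from 291 to 549. The collagen ranges of the 2 lines overlap, although the lines expressed different collagen chains.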
